A study of Mus musculus with 6 samples.

Results

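The islet endothelial marker genes are 10 genes by which the cells lining blood vessels are commonly recognised, namely Tek, Sox18, Vwf, Tie1, Pecam1, Cdh5, Kdr, Flt1, Esam and Emcn. They were taken by symbol from the platform annotation of an Affymetrix mouse array that reads mainly the 3' ends of transcripts, and 10 of 18193 measured genes met the rule. The genes were read by 14 probe sets in all, and the probe set with the highest mean over all 6 arrays stands for a gene. The list was selected on endothelial identity and on the difference between CMPF and vehicle arrays, in which Tek, Sox18, Vwf and Tie1 had been seen higher with CMPF. The differences of all 10 genes between the groups are therefore given as a description, with no test.

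Pancreatic islets, the small clusters of endocrine cells that make insulin and other hormones, had been isolated from male CD1 mice aged 8 weeks and kept overnight in RPMI medium. The CMPF group held 3 arrays of islets exposed to 200 uM CMPF for 24 hours, and the vehicle group held 3 arrays of islets exposed to 0.1% ethanol for the same time. CMPF is a circulating breakdown product of furan fatty acids. The labels do not say whether islets of several animals were pooled or whether the numbered samples came from separate preparations, and cultured islets have no blood flow.

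An islet is crossed by a dense net of fenestrated capillaries, whose growth and upkeep depend on VEGF made by the beta cells. VEGF acts on endothelial tyrosine kinase receptors, and the angiopoietins act on a second receptor family named TIE. Transcription factors of the ETS and SOX families maintain the endothelial programme, and adhesion proteins at the junctions hold the cells together. Endothelial cells are known to be lost gradually from isolated islets in culture, so their markers report on the cells left in a preparation as well as on the activity of each gene. In RNA from whole islets, fewer endothelial cells and less RNA per endothelial cell cannot be told apart.

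Promoter sequence is given because the 10 genes moved together from array to array, as described further on. RefSeq promoter windows (GRCm38.p6) were matched for 5 of the 10 genes, namely Tek, Tie1, Kdr, Flt1 and Emcn. The stretches before the start of Tie1 and Emcn are shown because they stand for a gene that lay higher with CMPF under each number and a gene that did not, and because at least 234 of their 250 bases lie outside the annotated gene. Capitals mark 6-letter matches on either strand to AGGAAG, which holds the core read by ETS factors, to its variant beginning with C (written CGGAAG), to the SOX core given by the letters AACAAT, or to the GATA core given by the letters AGATAA.
Tie1 (chr4:118489850-118490099, minus strand): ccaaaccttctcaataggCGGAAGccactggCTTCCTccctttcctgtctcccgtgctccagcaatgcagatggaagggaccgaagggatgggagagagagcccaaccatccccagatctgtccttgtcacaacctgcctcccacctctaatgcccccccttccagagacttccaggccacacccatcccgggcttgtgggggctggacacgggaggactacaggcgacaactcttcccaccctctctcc
Emcn (chr3:137340828-137341061, plus strand): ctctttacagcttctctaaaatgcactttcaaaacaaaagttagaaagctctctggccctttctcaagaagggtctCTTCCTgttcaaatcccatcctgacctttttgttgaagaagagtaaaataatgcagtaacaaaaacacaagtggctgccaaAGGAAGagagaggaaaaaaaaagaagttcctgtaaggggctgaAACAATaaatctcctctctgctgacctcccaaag

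The Tie1 stretch held 1 match to each ETS motif, and the Emcn stretch held 2 matches to AGGAAG and 1 to the SOX motif. In the 250 bases before the start, at least 1 of the ETS motifs was found in 3 of the 5 matched genes (Tie1, Flt1 and Emcn), against 39.2% of all 32851 promoter windows. The SOX motif was found in 2 of the 5 (Tek and Emcn), against 9.42% of all windows. The Flt1 and Tek matches lie within the annotated gene, which reaches further out than the start used for these windows. The GATA motif was found in 0 of the 5, against 9.99% of all windows. These are matches of letters in a short window and say nothing about which factor binds there.

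Across all genes limma called 0 of 18193 (0%) at an adjusted p under 0.05, and 0 with the replicate number as a block. An unadjusted p under 0.05 was reached by 205 genes, of which 133 (0.731%) were higher and 72 (0.396%) lower with CMPF, and by 692 genes with the block. The values are RMA log2 signals without a detection call, so low signal and no expression look alike. The median level of all genes was 6.42, and Tek, Sox18, Vwf, Tie1 and Pecam1 read below it while Cdh5, Kdr, Flt1, Esam and Emcn read above it. The difference in log2 signal between the 3' and 5' Gapdh control probe sets, a sign of RNA integrity, was 0.017, 0.017 and -0.016 on the CMPF arrays and -0.027, -0.089 and -0.045 on the vehicle arrays, so that every CMPF value lay above every vehicle value. For Actb it was larger, at 0.84, 0.74 and 0.76 on the CMPF arrays and 0.83, 0.70 and 0.81 on the vehicle arrays, with overlap and with number 3 lower with CMPF. The part of RNA integrity in the differences below was not tested.

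The TIE receptors were higher with CMPF under all 3 replicate numbers. Tek encodes the receptor for the angiopoietins, and its log2 signal was 4.38, 4.80 and 5.15 on CMPF arrays 1, 2 and 3, against 3.997, 4.38 and 4.84 on vehicle arrays 1, 2 and 3. The groups overlapped, since vehicle 3 read above CMPF 1 and CMPF 2. The order of the numbers was the same in both groups, with number 1 lowest and number 3 highest. Tek averaged 4.78 ± 0.38 with CMPF and 4.41 ± 0.42 with vehicle (SD, n = 3 each), a difference of 0.37 (SE 0.256) or 1.29-fold. Within the numbers the differences were 0.39, 0.42 and 0.31. Their spread was small beside that between numbers, where the mean of the CMPF and vehicle array varied by 0.81.

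Tie1, the related receptor that binds no angiopoietin strongly by itself and modulates Tek, gave a low signal on this array. It read 3.20, 3.64 and 3.53 on CMPF arrays 1 to 3, against 2.96, 3.39 and 3.14 on vehicle arrays 1 to 3. The groups overlapped here too, with vehicle 2 above CMPF 1. Tie1 averaged 3.46 ± 0.23 with CMPF and 3.16 ± 0.22 with vehicle (SD, n = 3 each), a difference of 0.29 (SE 0.155). Its level lay at the 9.09th percentile of all gene levels, where RMA compresses differences.

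The receptors for VEGF showed smaller differences, and their signs depended on the replicate number. Kdr, the main signalling receptor for VEGF, read 7.45, 8.05 and 8.10 on CMPF arrays 1 to 3, against 7.62, 7.82 and 7.94 on vehicle arrays 1 to 3. CMPF 1 was the lowest of the 6 arrays and CMPF 3 the highest, so the vehicle arrays lay between them. Kdr averaged 7.87 ± 0.36 with CMPF and 7.80 ± 0.16 with vehicle (SD, n = 3 each), a difference of 0.07 (SE 0.184). The differences by number were -0.17, 0.23 and 0.15.

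Flt1, a VEGF receptor that also exists as a soluble decoy, had 4 probe sets, which allowed the reading to be repeated within the gene. The brightest read 7.41, 7.56 and 8.15 on CMPF arrays 1 to 3, against 7.48, 7.26 and 7.82 on vehicle arrays 1 to 3. Array 3 was the highest of both groups. Flt1 averaged 7.71 ± 0.39 with CMPF and 7.52 ± 0.29 with vehicle (SD, n = 3 each), a difference of 0.19 (SE 0.221). The other 3 probe sets, from brighter to dimmer, differed by 0.19, 0.10 and 0.18. Under number 1 the 4 probe sets did not share a sign, with differences of -0.08, 0.16, -0.09 and 0.22 from brightest to dimmest, while all 4 were higher with CMPF under numbers 2 and 3.

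**Figure D1:**
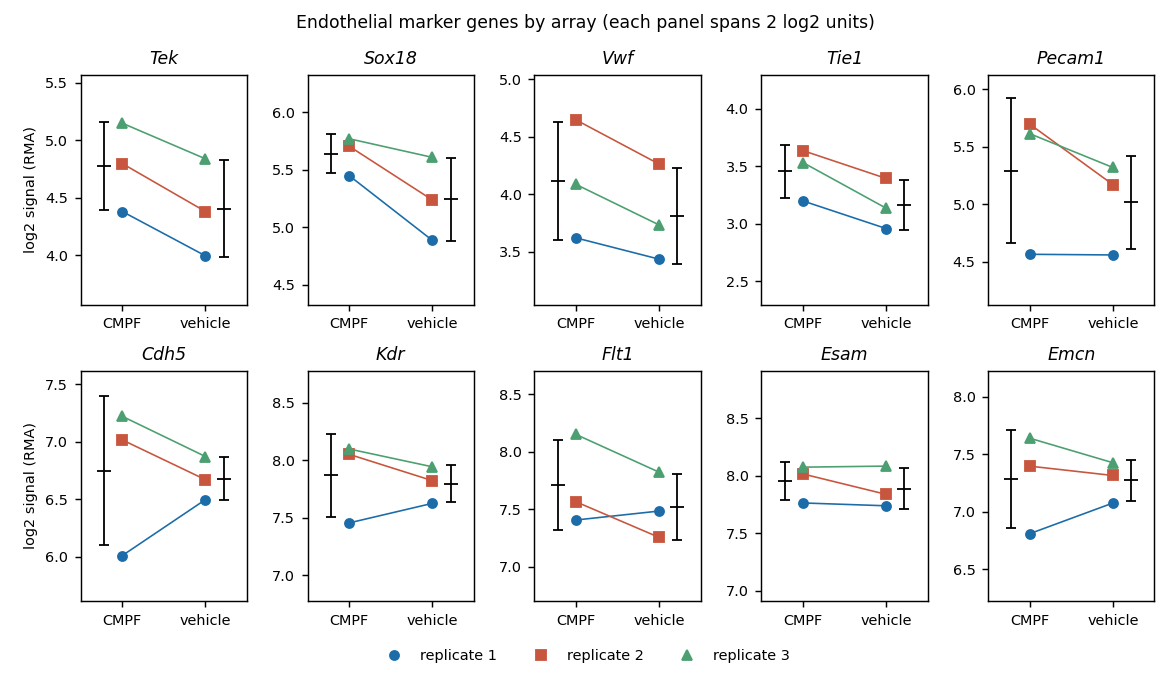
Log2 signal (y axis) of each endothelial marker on the CMPF arrays (left in each panel) and the vehicle arrays (right), with lines joining arrays of the same replicate number and black bars for the group mean and SD (n = 3). Tek, Sox18, Vwf, Tie1 and Pecam1 slope down to the right for every number, whereas the line of number 1 runs the other way for Cdh5, Kdr, Flt1 and Emcn.

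The junction genes ranged from a difference close to 0 to one similar to the TIE receptors. Pecam1, an adhesion protein of endothelial cells and also of platelets and leukocytes, read 4.57, 5.70 and 5.62 on CMPF arrays 1 to 3, against 4.56, 5.17 and 5.32 on vehicle arrays 1 to 3. Array 1 of both groups was far below the rest, and there the groups differed by only 0.0057. Pecam1 averaged 5.29 ± 0.63 with CMPF and 5.02 ± 0.40 with vehicle (SD, n = 3 each), a difference of 0.27 (SE 0.329).

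Cdh5, the cadherin specific to endothelial junctions, read 6.01, 7.02 and 7.22 on CMPF arrays 1 to 3, against 6.50, 6.67 and 6.87 on vehicle arrays 1 to 3. Its differences by number were -0.49, 0.35 and 0.35, the widest scatter of the 10 genes. The group means were 6.75 ± 0.65 with CMPF and 6.68 ± 0.19 with vehicle (SD, n = 3 each), a difference of 0.07 (SE 0.298). The spread within the CMPF group came from CMPF 1, which read 0.49 below the lowest vehicle array. A second probe set of Cdh5 read between 3.26 and 3.39 on all 6 arrays and differed by -0.03. It followed none of the array-to-array movement of the first. Its level lay at percentile 18.1 of all probe sets, where low signal and no expression look alike, so it cannot tell whether Cdh5 moved.

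Esam, an adhesion molecule of tight junctions, varied least of the 10, over a range of 0.34 across the 6 arrays. It read 7.76, 8.02 and 8.07 on CMPF arrays 1 to 3, against 7.74, 7.84 and 8.08 on vehicle arrays 1 to 3. The groups ran alongside each other, with array 1 lowest and array 3 highest in both. Esam differed by 0.06 (SE 0.129), with means of 7.95 ± 0.17 with CMPF and 7.89 ± 0.18 with vehicle (SD, n = 3 each).

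Emcn encodes endomucin, a sialomucin on the surface of capillary and venous endothelium. It read 6.81, 7.40 and 7.64 on CMPF arrays 1 to 3, against 7.08, 7.32 and 7.43 on vehicle arrays 1 to 3. The vehicle arrays lay inside the range of the CMPF arrays. The means were 7.28 ± 0.43 with CMPF and 7.27 ± 0.18 with vehicle (SD, n = 3 each), and the difference of 0.0093 (SE 0.212) was the smallest of the 10.

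Vwf, the von Willebrand factor that endothelial cells store and release to bind platelets, followed another order of arrays than Tek. It read 3.62, 4.65 and 4.09 on CMPF arrays 1 to 3, against 3.44, 4.26 and 3.73 on vehicle arrays 1 to 3. Number 2 was highest in both groups, an order it shared with Tie1. Vwf averaged 4.12 ± 0.51 with CMPF and 3.81 ± 0.42 with vehicle (SD, n = 3 each), a difference of 0.31 (SE 0.293). The differences by number were 0.19, 0.38 and 0.35. The level of Vwf was low on this array, at percentile 17.7 of all gene levels.

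Sox18, a transcription factor of early endothelial and lymphatic differentiation, had the largest difference of the 10. It read 5.45, 5.70 and 5.77 on CMPF arrays 1 to 3, against 4.89, 5.24 and 5.61 on vehicle arrays 1 to 3. The only overlap was vehicle 3, which read above CMPF 1. Sox18 averaged 5.64 ± 0.17 with CMPF and 5.24 ± 0.36 with vehicle (SD, n = 3 each), a difference of 0.40 (SE 0.187) or 1.32-fold. The difference was 0.56 under number 1, 0.47 under number 2 and 0.16 under number 3.

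**Figure D2:**
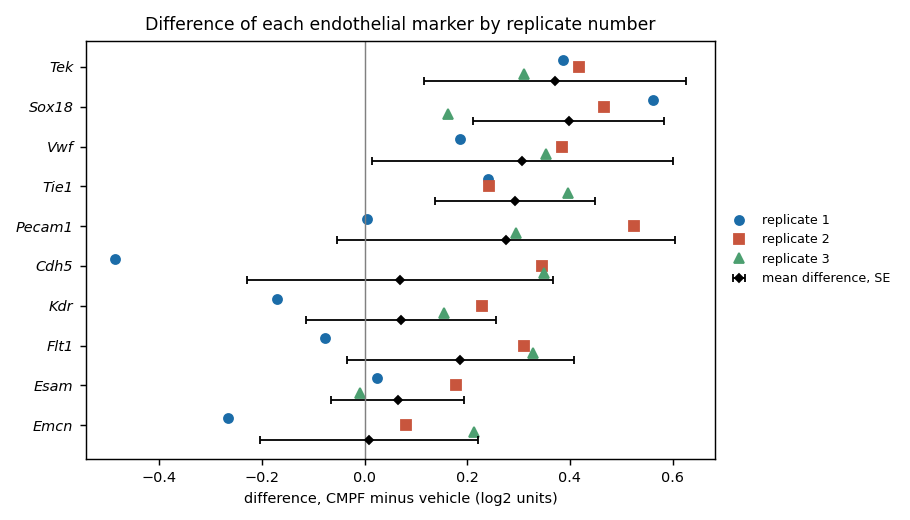
Difference in log2 signal, CMPF minus vehicle (x axis), of each endothelial marker (rows) by replicate number (coloured points) and as the group difference with its SE without the block (black). The points of Tek lie between 0.31 and 0.42, and those of Cdh5 between -0.49 and 0.35.

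Taking the list as a whole, the median difference was 0.23, and 5 of 10 genes were higher with CMPF under all 3 numbers, where 11.8% of all genes were. These were Tek, Sox18, Vwf, Tie1 and Pecam1, and because the list was chosen with this contrast in view nothing is read from the count. None of the 10 had every CMPF array above every vehicle array, as 2.41% of all genes had, or every CMPF array below every vehicle array, as 2.11% had. The medians by number were 0.02, 0.33 and 0.30. The 5 genes higher under all numbers were also the 5 below the median level of all genes, with differences between 0.27 and 0.40. Those above it differed by between 0.0093 and 0.19. Over all genes, 13.8% of those below that level and 9.74% of those above it were higher under all 3 numbers.

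All 45 pairs of the 10 genes correlated above 0 over the 6 arrays, with a median Pearson r of 0.76, given as a description of 6 arrays that were normalized together. Cdh5 and Kdr were closest (r = 0.98) and Vwf and Flt1 farthest apart (r = 0.02). With each group's mean removed the median r was 0.78, so the joint movement was as close without the difference between the groups. CMPF 3 was the highest array for 6 genes and CMPF 2 for 3 genes, while vehicle 1 was the lowest for 6 and CMPF 1 for 3. The mean over the 10 genes was 5.67, 6.25 and 6.33 on CMPF arrays 1 to 3, against 5.63, 5.94 and 6.08 on vehicle arrays 1 to 3. Number 1 was thus low in both groups, and the step between number 1 and the others was larger than the step between the groups.

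**Figure D3:**
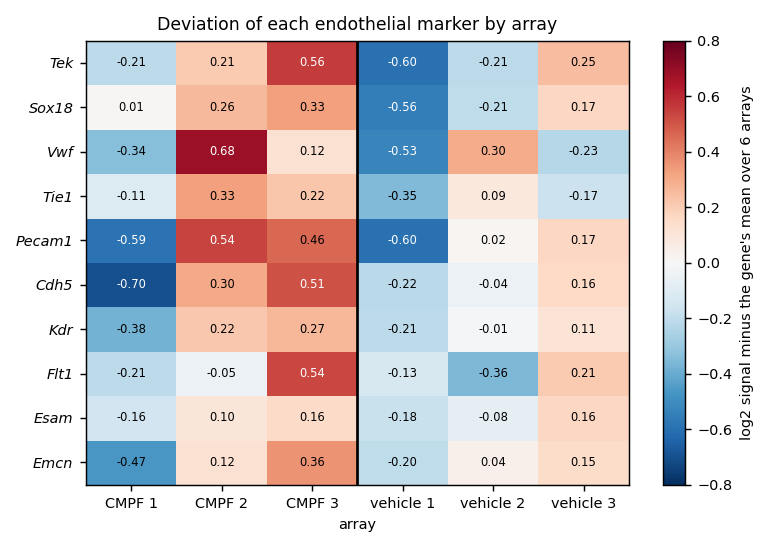
Log2 signal of each endothelial marker (rows) on each array (columns) minus that gene's mean over the 6 arrays, with red above and blue below the mean. CMPF 1 and vehicle 1 are blue for all genes except Sox18 on CMPF 1, at 0.01, and CMPF 3 is red for all.

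The other endothelial genes, 30 of receptors, junctions and surface and 22 of transcription factors, were set beside the 10 because they were not members. They too were listed with earlier results of these data known, so they are not an independent yardstick. All 52 were measured, and limma called 0 of them (adjusted p = 0.99995 or higher without the block). An unadjusted p under 0.05 was reached by 1 of the 52, Ushbp1, and by 5 with the block. Each of these 5 was higher with CMPF under all 3 numbers, and limma called none of them with the block. Over all 18193 genes this unadjusted threshold was reached by 205, and by 692 with the block. The median difference was 0.0093, against 0.0018 for all genes tested, with 28 above 0 and 24 below 0. Of the 52, 7 (13.5%) were higher under all 3 numbers, where 11.8% of all genes were, and 1 was lower, where 11.1% were. The medians by number were -0.14, 0.05 and 0.21.

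Among the surface genes, Rasip1, which endothelial cells need to form lumens, read 5.04, 5.50 and 5.15 on CMPF arrays 1 to 3, against 4.78, 5.19 and 4.67 on vehicle arrays 1 to 3. Its difference of 0.35 (SE 0.172) did not pass. Ushbp1 read 4.94, 4.86 and 4.83 on CMPF arrays 1 to 3, against 4.71, 4.62 and 4.63 on vehicle arrays 1 to 3, and was the only endothelial gene of either list without overlap, where 2.41% of all genes were higher in this way. It differed by 0.23 (SE 0.083). Tmem204 differed by 0.31 (SE 0.149) and Acvrl1, a receptor for bone morphogenetic proteins, by 0.27 (SE 0.120). All of these read below the median level of all genes.

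Among the transcription factors the examples with the smallest p had either sign. Klf2, which laminar flow induces, differed by 0.32 (SE 0.340) and Nr2f2, a factor of venous identity, by 0.09 (SE 0.114). Mef2c differed by -0.19 (SE 0.201) and Fli1, an ETS factor, by -0.13 (SE 0.161). None passed.

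The other endothelial genes were also split by their level over all 6 arrays. The 26 below the median level had a median difference of 0.0043 and the 26 above it one of 0.01. Over all genes the medians were 0.03 below and -0.02 above that level.

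**Figure D4:**
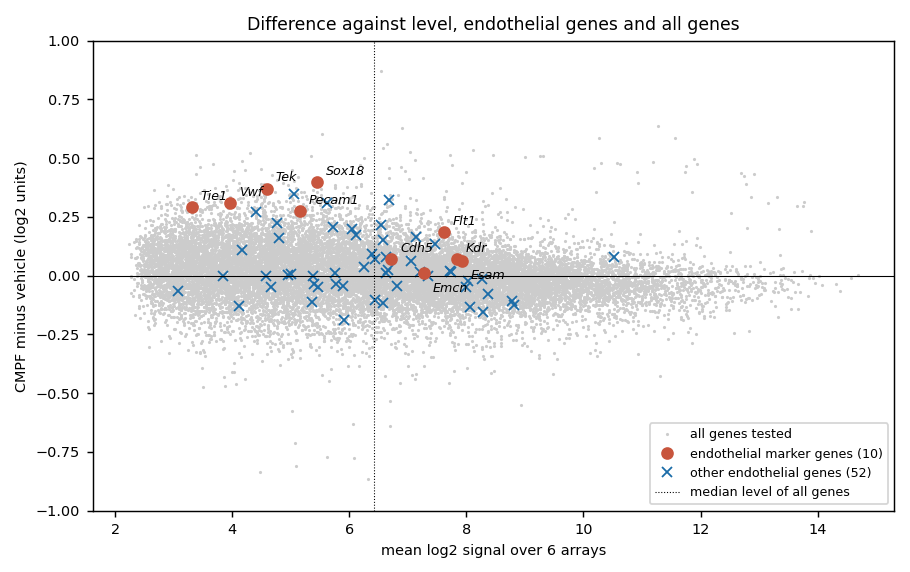
Difference in log2 signal, CMPF minus vehicle (y axis), against the mean log2 signal over 6 arrays (x axis) for all genes tested (grey), the 10 endothelial markers (red circles) and 52 other endothelial genes (blue crosses), with 7 genes beyond 1 log2 unit not drawn. The markers left of the dotted line, at the median level of 6.42, lie at 0.27 or above, while the other endothelial genes lie on both sides of 0.

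The ligands of these receptors did not move in 1 direction. All 8 ligand genes were measured, 0 passed (smallest unadjusted p = 0.229), and 3 had a difference above 0 and 5 below. Vegfa, the principal ligand of Kdr, read 9.30, 9.14 and 9.74 on CMPF arrays 1 to 3, against 9.38, 9.31 and 9.65 on vehicle arrays 1 to 3, a difference of -0.05 (SE 0.172). Vegfc, which acts on lymphatic vessels, read 4.73, 5.73 and 5.83 on CMPF arrays 1 to 3, against 5.58, 6.44 and 5.62 on vehicle arrays 1 to 3. Its difference of -0.45 (SE 0.341) was the largest of the ligands in size, yet number 3 had the opposite sign. Pgf, which binds Flt1, differed by 0.14 (SE 0.333) and Vegfb by 0.07 (SE 0.082). Of the angiopoietins, Angpt1, the activating ligand of Tek, differed by 0.08 (SE 0.111), Angpt2, the context-dependent antagonist, by -0.0075 (SE 0.216), and Angpt4 by -0.09 (SE 0.150). Vegfd differed by -0.09 (SE 0.128).

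Other cell types that an islet preparation holds were read on the same arrays, and their part in the differences above was not tested. A fit with the acinar level is given further on as a description. Over all genes 9232 of 18193 had a difference above 0. Of 12 pericyte and smooth muscle markers 2 had a difference above 0, and their mean level ran from 6.64 to 7.36 on the CMPF arrays and from 6.79 to 7.26 on the vehicle arrays. Their medians by number were -0.21, -0.12 and 0.15, and 0 were lower under all 3 numbers, where 11.1% of all genes were. Of 19 measured stellate markers 2 were above 0, with mean levels from 7.78 to 8.90 with CMPF and from 8.13 to 8.57 with vehicle. The stellate medians by number were -0.34, -0.52 and 0.35, so number 3 had the opposite sign, and 0 were lower under all 3 numbers. Of 19 measured acinar markers 18 were above 0, with mean levels from 10.87 to 11.92 with CMPF and from 10.03 to 11.86 with vehicle. Of 11 measured leukocyte markers 6 were above 0, with mean levels from 6.23 to 6.50 with CMPF and from 6.27 to 6.42 with vehicle. Of 9 platelet markers, a cell that also holds Vwf and Pecam1, 5 were above 0, with mean levels from 5.35 to 5.58 with CMPF and from 5.35 to 5.54 with vehicle. Of 9 measured beta cell markers 2 were above 0, with mean levels from 11.4 to 12.0 with CMPF and from 11.5 to 11.9 with vehicle. For each of these lists the groups overlapped. Within the replicate numbers the acinar mean was higher with CMPF each time, at 11.17, 11.92 and 10.87 on CMPF arrays 1 to 3, against 10.90, 11.86 and 10.03 on vehicle arrays 1 to 3, and 14 of 19 acinar markers (73.7%) were higher under all 3 numbers, where 11.8% of all genes were. A fit that held this acinar level as a covariate gave the 10 endothelial markers a median difference of 0.19, beside 0.23 in the fit without it. Single genes moved in either direction. Tek went from 0.37 to 0.46 (SE 0.259 with the covariate) and Flt1 from 0.19 to 0.32 (SE 0.175). Vwf went from 0.31 to 0.15 (SE 0.253) and Tie1 from 0.29 to 0.23 (SE 0.151). With 6 arrays and SEs of this size, nothing is read from these shifts. RMA values have no true 0, so no marker could be called absent.

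**Figure D5:**
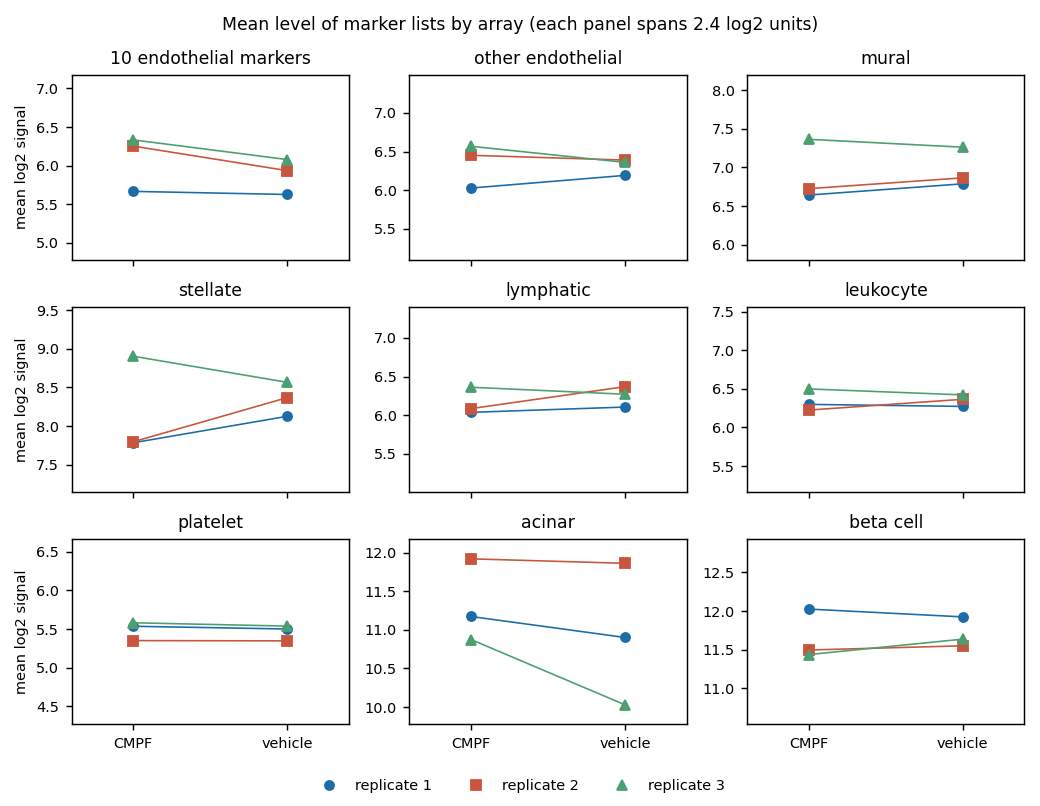
Mean log2 signal of the 10 endothelial markers, 52 other endothelial genes and marker lists of other cell types (y axis) on the CMPF arrays (left) and the vehicle arrays (right), with lines joining arrays of the same replicate number. The endothelial lists are lowest on number 1 in both groups, where the beta cell list is highest, and the groups overlap in every panel.

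By array, the mean profile of the 10 genes ran with that of the other surface genes (r = 0.95) and the transcription factors (r = 0.81). It ran almost as closely with the ligands (r = 0.78). For endothelial activation and haemostasis genes r was 0.64, and for pericyte and smooth muscle markers 0.62. For the lymphatic, stellate and leukocyte lists r was 0.51, 0.50 and 0.46, so the profile was not confined to endothelial genes. The profile ran opposite to that of the beta cell markers (r = -0.93). It had little relation to the platelet (r = -0.08) and acinar markers (r = 0.05), and r was -0.37 for the erythroid genes. These are descriptions over 6 arrays that were normalized together. Of 2031 genes outside the lists with a mean above the median and a range of at least 0.5 log2 units, the 6 whose profile was most like that of the 10 were Fyn (r = 0.98), Tiparp (r = 0.98), Prkd3 (r = 0.96), Pitpnc1 (r = 0.96), Ifi27 (r = 0.96) and Smurf2 (r = 0.96). Fyn, a tyrosine kinase of the Src family, read 6.46, 6.96 and 7.07 on CMPF arrays 1 to 3, against 6.55, 6.70 and 6.82 on vehicle arrays 1 to 3. Tiparp is an ADP-ribosyltransferase that the aryl hydrocarbon receptor induces. It read 7.72, 8.38 and 8.47 on CMPF arrays 1 to 3, against 7.83, 8.08 and 8.11 on vehicle arrays 1 to 3. Both repeated the pattern of Kdr, with CMPF 1 lowest and CMPF 3 highest of the 6 arrays.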

How the data were processed

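The submitters' processing notes name RMA and Affymetrix Expression Console 1.1, with which the authors made the deposited log2 signals. No settings are given in the sources used. Of 45101 probe sets, 64 controls were left out and 34945 had 1 gene. Of the probe sets naming a gene alone, the one brightest on average stood for it, which gave 18193 genes. Symbols were matched to RefSeq (GRCm38.p6) by Entrez ID, which changed 0. CMPF was compared with vehicle with lmFit and eBayes of limma 3.58.1 in R 4.3.3, as a two-sided test at an adjusted p of 0.05 (Benjamini-Hochberg, all genes), after a check on simulated data. Standard errors are from this fit. The number of arrays limits the precision, and since the labels do not name separate animals or cultures, p-values reflect only how these samples scatter, and that scatter may be technical. No 2 arrays held identical values.

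After removal of the group means, same-numbered arrays correlated at 0.488 to 0.638 and differently numbered ones at -0.555 to 0.0885, so the numbers were taken to pair the arrays, from the data and not from the labels, and the block was fitted as an alternative. Of 186 genes in fixed lists 169 were measured. Genes were named by a rule that takes all members and ligands, the up to 4 genes of each other list with the smallest p, and the 6 genes most like the members. For the erythroid list and the lists of non-endothelial cell types only summaries of the whole list are printed, and no single gene is named. The members and lists were chosen with earlier results of these data known. Promoter sequences are from RefSeq.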

Additional observations from a re-analysis of the deposited data

How the results depend on the processing

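Limma called 0 genes under each alternative (replicate block, 1 array or both arrays of a number left out, mean of all probe sets, median centring, second quantile normalization, 2 filters on dim genes, array weights, acinar covariate), and so was the count for the other endothelial genes. The replicate block left every difference as it was and changed no call, but it gave smaller SEs for the 10 markers. For Tek the SE was 0.076 with the block and 0.256 without it, and for Cdh5 0.175 and 0.298. Over all genes the median SE was 0.088 with the block and 0.116 without it. The median of the 10 markers, 0.23, ran from 0.0577 to 0.43 when 1 array was left out, highest without CMPF 1, and that of the other endothelial genes, 0.0093, from -0.0382 without CMPF 3 to 0.21 without CMPF 1. With array weights these medians were 0.29 and 0.07, and with the acinar covariate 0.19 and 0.03. Tek, Sox18, Vwf, Tie1 and Pecam1 kept a positive difference under each alternative that held them. These 5 were higher under all 3 numbers and the list was chosen with this contrast in view, so nothing is read from the kept sign. The lowest values were 0.17 for Tek, 0.22 for Sox18, 0.19 for Tie1 and 0.05 for Pecam1, all without vehicle 1, and 0.04 for Vwf without CMPF 2. Cdh5 turned negative under 5 of 17 alternatives, Kdr under 4, Flt1 under 1, Esam under 1 and Emcn under 6; the cause was not tested. The filter at the median level left 5 of the 10 in, without any of the 5 that were higher under all 3 numbers. The median difference of those left was 0.07. The filter at the 25th percentile left 8, without Vwf and Tie1, and their median difference was 0.13.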

Other observations

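Genes of endothelial activation and haemostasis showed no common direction. Of 13 listed, 12 were measured, 0 passed with limma (smallest unadjusted p = 0.183), and 6 had a difference above 0 and 6 below. F3, tissue factor, read 6.30, 6.86 and 7.26 on CMPF arrays 1 to 3, against 6.93, 7.57 and 7.07 on vehicle arrays 1 to 3, a difference of -0.38 (SE 0.261). Icam1, the leukocyte adhesion molecule, differed by -0.28 (SE 0.327), and Sele, the endothelial selectin, by 0.13 (SE 0.122). Ece1, which processes endothelin, differed by -0.08 (SE 0.113). None of the 12 was higher under all 3 numbers, where 11.8% of all genes were.

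Of 5 measured lymphatic endothelial genes 4 had a difference below 0. Prox1, which specifies lymphatic endothelium and is also active in islet cells, read 7.002, 6.92 and 7.36 on CMPF arrays 1 to 3, against 7.68, 7.22 and 7.37 on vehicle arrays 1 to 3, a difference of -0.33 (SE 0.160) that did not pass. Lyve1, the hyaluronan receptor of lymphatic vessels, differed by -0.09 (SE 0.339) and Flt4, the receptor for Vegfc, by -0.14 (SE 0.164). Reln, a secreted matrix protein, was the gene with a difference above 0, at 0.16 (SE 0.159). Of 4 measured erythroid genes 2 differed above 0 and 2 below, at mean levels between 3.30 and 4.56.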
